A study of Homo sapiens with 8 samples.

Results

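NEAT1 and MALAT1 are neighbouring genes for long noncoding RNAs on chromosome 11, and the p53 chromatin immunoprecipitation (ChIP-seq) peaks called around them in 293T cells were examined. The stretch covered 104 kb of build hg19, from 10.3 kb before the start of NEAT1 to 10.1 kb past the end of MALAT1, and every peak sharing at least 1 bp with it was taken. NEAT1 is 22743 bp long on this build, and its promoter, 1 kb on either side of its start, ran from 65189269 to 65191269. MALAT1 is 8708 bp long, with its promoter from 65264233 to 65266233, and both genes lie on the plus strand. This gave 79 peaks of 97582 in the 4 lists together. They were 38 of 46658 and 16 of 16642 in Dox replicates 1 and 2, and 8 of 11304 and 17 of 22978 in PBS replicates 1 and 2. The stretch was chosen by the fold enrichment and p of its strong NEAT1 peak, which were known beforehand, so the height and rank of that peak and its presence in all libraries are given as a description without a test.

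293T cells derive from human embryonic kidney and express the large T antigen of simian virus SV40, which binds p53 and limits the line as a model of normal p53 function. Cells received doxorubicin, a topoisomerase poison that breaks DNA, at 0.5 µg/ml (Dox) or, as the vehicle, 20 µl of phosphate-buffered saline (PBS), in either case over 24 h. In each condition replicate 1 came from passage 3 and replicate 2 from passage 5, so replicate number and passage cannot be told apart. With 2 libraries per condition, the exact p-values only place the observed difference among those from relabelling these same libraries. They say nothing about other samples. Nothing in the labels says whether the libraries of a condition were independent experiments beyond their passage. The series names 8 samples, of which the 4 inputs were not analysed here, and read depth is not known from the peak lists.

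NEAT1 RNA is the scaffold of paraspeckles, nuclear bodies that hold RNA-binding proteins, and is made as a short form that ends early and a long form that spans the whole gene. MALAT1 RNA is an abundant transcript of nuclear speckles, where splicing factors gather. p53 is a transcription factor that recognises a pair of half-sites in DNA, and NEAT1 is known as one of its target genes in several cell types. In RefSeq (GRCh38.p14) an antisense gene, TALAM1, overlaps MALAT1. Peaks carry no strand, so signal over MALAT1 and TALAM1 cannot be told apart.

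Promoter sequences (250 bases before to 50 bases from a start on) are shown for MALAT1. The reason is that its site with a peak in every library lay over 1 kb past the hg19 start, and RefSeq lists a further start. Of the 2 genes, 1 matched the RefSeq promoter table (GRCh38.p14): MALAT1, with 2 entries on the plus strand of chromosome 11, at 65497488 to 65497787 and at 65498795 to 65499094. Their starts are 1307 bp apart. Capitals mark the 4-base centres of a p53 half-site, which are CATG, CAAG or CTTG, and CTAG.
MALAT1 first start: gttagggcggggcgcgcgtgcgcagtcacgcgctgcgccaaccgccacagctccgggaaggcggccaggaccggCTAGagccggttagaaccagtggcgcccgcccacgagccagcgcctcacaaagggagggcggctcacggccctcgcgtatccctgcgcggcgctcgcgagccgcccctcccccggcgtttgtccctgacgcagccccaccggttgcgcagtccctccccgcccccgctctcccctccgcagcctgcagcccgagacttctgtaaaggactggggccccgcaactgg
MALAT1 second start: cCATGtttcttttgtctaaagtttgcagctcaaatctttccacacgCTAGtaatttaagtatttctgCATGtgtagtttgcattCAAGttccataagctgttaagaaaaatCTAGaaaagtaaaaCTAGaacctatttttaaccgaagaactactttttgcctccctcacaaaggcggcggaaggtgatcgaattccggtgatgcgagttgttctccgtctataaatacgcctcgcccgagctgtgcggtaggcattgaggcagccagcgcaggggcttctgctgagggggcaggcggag
Neither sequence holds a full 10-base p53 half-site consensus, a match that 6.63% of the 35116 promoters in the table hold on either strand. The best 10-base stretch differed from it at 2 bases before the first start and at 1 base before the second. How many of all promoters hold a stretch as near was not counted, so nothing is read from these near matches. CATG occurs 0 times in the first and 2 times in the second sequence, and 54.9% of all listed promoters hold it. CTAG occurs 1 and 3 times in the same order (50.04% of promoters), and CAAG or CTTG 0 times and 1 time (86.0%). These 4-base centres are part of the half-site and are common, so a match describes the sequence and not a bound site. The second sequence also holds TATAAA, beginning 30 bases before its start, a motif that 11.5% of promoters hold on either strand and that was looked for after the sequence had been seen. The first sequence is 73.7% G or C and the second 46.0%. NEAT1 is not in the promoter table.

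The highest peak of the stretch sat at the NEAT1 promoter in each library (within 1 kb of the start). Its fold enrichment, which is the authors' own value at the summit over the caller's local background, was 26.4 and 22.4 in Dox replicates 1 and 2, and 14.9 and 17.9 in PBS replicates 1 and 2. Both Dox values were above both PBS values, but folds of separate lists are on scales of their own and no difference was drawn from them. Within its own list the peak ranked 2, 1, 3 and 12 by fold in the same order, and 3, 3, 7 and 16 by p. It stood 3.37, 4.36, 4.04 and 4.0 times as high as the next peak of the stretch. The −log10 q was 60.8, 55.8, 24.7 and 39.4.

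The summits of this peak agreed to within 15 bp. They lay 239 and 246 bp after the NEAT1 start in Dox replicates 1 and 2, and 232 and 247 bp after it in PBS replicates 1 and 2. Over the 3840 sites of the genome with a peak in all 4 libraries, the median range of summits was 209 bp, and 51 sites (1.33%) had a range of 15 bp or less. These sites were of any height, whereas this peak was chosen for its height. Sites of like height were not compared, so the small range is a description only. The merged site ran from 65190010 to 65191612, from before the start into the transcribed region. In Dox replicate 2 it held a further small peak of 2.90-fold whose summit lay 1115 bp after the start.

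A weaker site lay upstream of NEAT1, from 65188554 to 65189516, and was also called in all 4 libraries. Its fold enrichment was 7.84 and 4.02 in Dox replicates 1 and 2 and 3.70 and 4.47 in PBS replicates 1 and 2, so the conditions overlapped. The −log10 q was 7.69 and 2.40 in Dox and 0 and 2.81 in PBS. Its summits lay 1401, 1459, 1401 and 1422 bp before the start, a range of 58 bp. Between this site and the promoter site only Dox replicate 1 had a peak, of 2.63-fold with a −log10 q of 0.

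**Figure D1:**
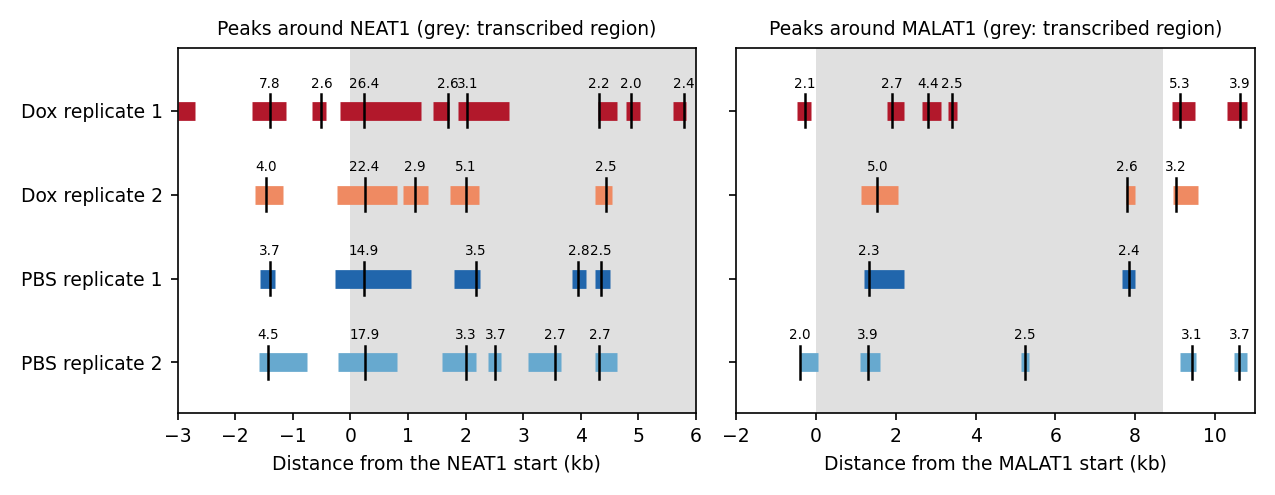
Peaks around the starts of NEAT1 (left) and MALAT1 (right) in each library, as bars over the distance from the start in kb. Black ticks are summits, numbers are the authors' fold enrichments, and grey is the transcribed region on hg19. The NEAT1 promoter peaks of 14.9-fold to 26.4-fold line up in all 4 libraries. Around MALAT1 the merged site with a peak in every library has summits 1.29 to 1.90 kb after the start. Its Dox replicate 1 and PBS replicate 2 peaks do not overlap.

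The NEAT1 gene body, from 1 kb after the start to the gene's end, held 14 and 5 peaks in Dox replicates 1 and 2 and 3 and 4 in PBS replicates 1 and 2. Dox replicate 1 stands apart, and the conditions did not overlap. Dox libraries had 9.5 ± 6.36 peaks and PBS libraries 3.5 ± 0.707 (mean ± SD, n = 2 each). The two-sided exact permutation p was 0.333, the smallest that 2 libraries against 2 allow. Within replicate number 1 Dox had 11 more peaks than PBS, and within number 2 it had 1 more. With lists of equal length the counts were 2 and 5 in Dox and 3 and 3 in PBS, and the conditions overlapped. They also overlapped with the promoter taken as 2 kb on either side, at 13 and 4 peaks in Dox and 3 and 4 in PBS. Peaks with a −log10 q of 1.3 or more numbered 0 and 1 in Dox and 0 and 0 in PBS, again with overlap.

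Within the NEAT1 body the PBS peaks all lay towards its 5′ end, whereas the Dox peaks were spread further. Between 1.00 and 6.44 kb after the start, the first of 4 equal parts of the body, lay 15 of the 26 body peaks of all libraries. Of these 15, 10 belong to 2 sites that every library shares and that are counted once or more per library; as merged sites, 6 of 16 lay in this part. All 3 of PBS replicate 1 and all 4 of PBS replicate 2 were there, against 3 of 5 in Dox replicate 2. In Dox replicate 1 this part held 5 of 14 body peaks, and the next part held 5 as well. The remaining 11 body peaks, in the rest of the gene, were from Dox libraries, 9 from replicate 1 and 2 from replicate 2, where 64.9% of all peaks in the 4 lists are from Dox. With lists of equal length 3 of the 11 were left, 1 and 2 in Dox replicates 1 and 2. Folds of the 11 reached 3.70 in Dox replicate 1 and 3.62 in Dox replicate 2, and none had a −log10 q of 1.3 or more. The Dox replicate 1 list is the longest of the 4, and the part that list length has in this count was not tested beyond the equal lists.

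Of the NEAT1 body sites, 2 were called in all 4 libraries. The first, from 65191697 to 65193023, had highest folds of 3.09 and 5.14 in Dox replicates 1 and 2 and 3.48 and 3.68 in PBS replicates 1 and 2. Its −log10 q was 3.31 in Dox replicate 2 and at most 0.579 in the other libraries, and its summits ranged over 513 bp. The second, from 65194507 to 65194900, had folds of 2.21 and 2.55 in Dox and 2.46 and 2.66 in PBS, with a −log10 q of 0 in every library. The exact fold and p of this second site, its own peak included, were those of 13 (0.0279%) and 19 (0.114%) listed peaks in Dox replicates 1 and 2. In PBS replicates 1 and 2 they were those of 175 (1.55%) and 68 (0.296%) listed peaks. Other low values recurred more often. At sites called in Dox replicate 1 alone, 4 peaks of the stretch had a fold of 2.18 and a −log10 p of 1.31, values held by 4986 peaks (10.7%) of that list.

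**Figure D2:**
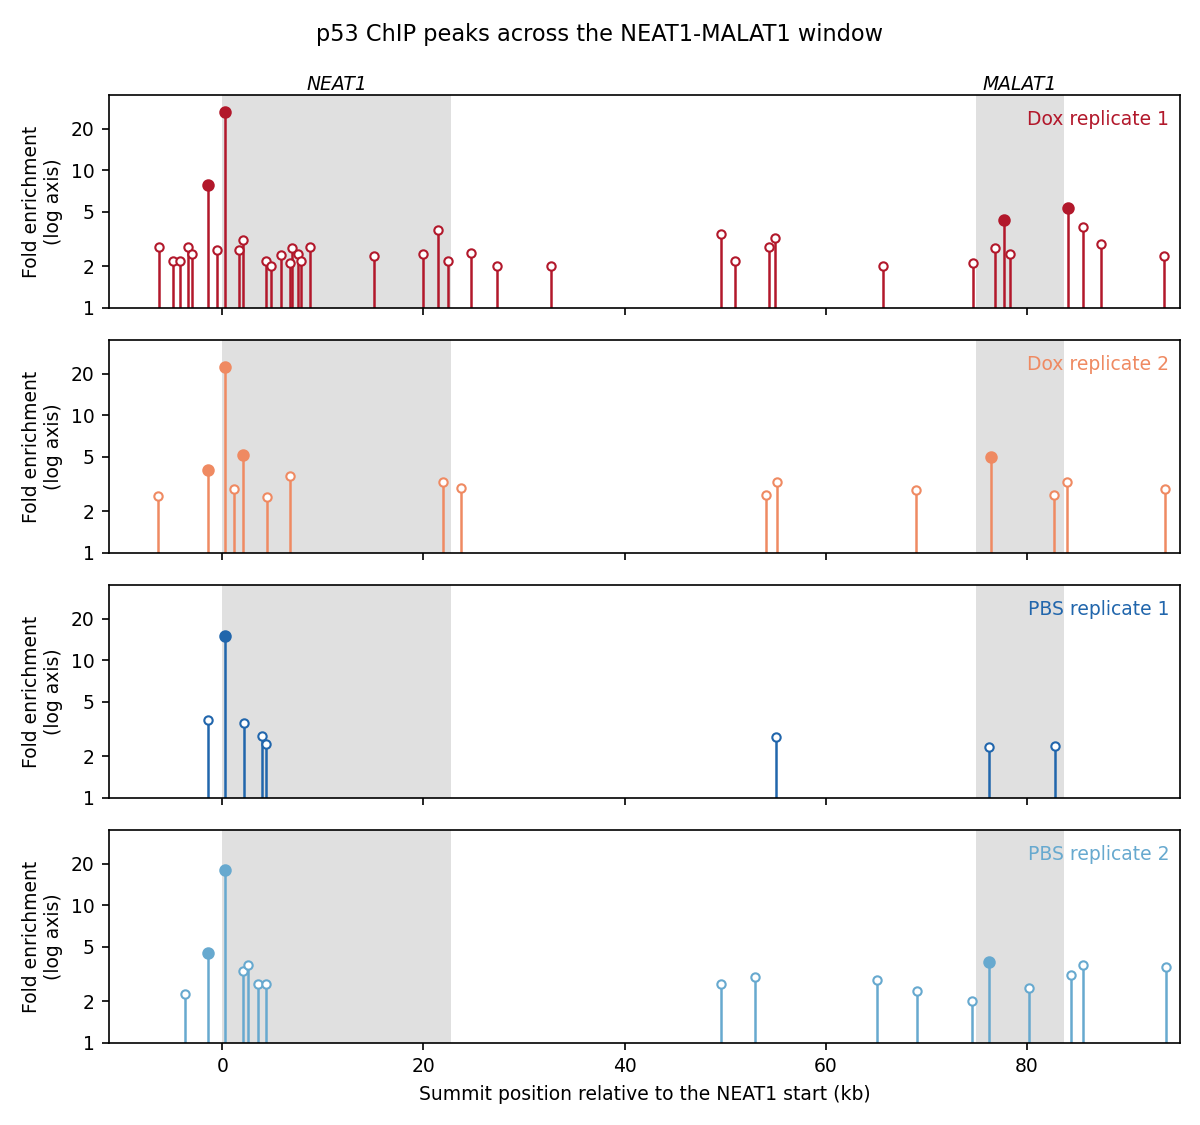
Fold enrichment (log axis) of each peak against its summit's distance from the NEAT1 start in kb, 1 panel per library, with both genes in grey. Filled circles have a −log10 q of 1.3 or more and open circles less. The NEAT1 promoter peak is the highest in each panel, and most other peaks are open and between 2-fold and 4-fold.

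Relative to the hg19 starts used here, MALAT1 differed from NEAT1 in where its peaks lay. Within 1 kb of the hg19 start only Dox replicate 1 and PBS replicate 2 had a peak, of 2.11-fold and 2.02-fold, each with a −log10 q of 0. Dox replicate 2 and PBS replicate 1 had none there. The merged site with a peak in every library was in the gene body by the rule, from 65266341 to 65267443. Its folds were 2.72 and 4.95 in Dox replicates 1 and 2 and 2.34 and 3.89 in PBS replicates 1 and 2. The −log10 q was 0 and 3.91 in Dox and 0 and 1.45 in PBS. Its Dox replicate 1 peak (65267010 to 65267428) and PBS replicate 2 peak (65266341 to 65266836) do not overlap. They were joined only through the wider peaks of the other libraries, so no base lay under a peak in all of them.

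Summits of that site lay 1901 and 1538 bp after the hg19 MALAT1 start in Dox replicates 1 and 2, and 1337 and 1292 bp after it in PBS replicates 1 and 2, a range of 609 bp. On GRCh38.p14 the second MALAT1 start, whose sequence is shown above, lies 1307 bp after the first. Coordinates were not converted between the builds, but gene lengths can be compared. NEAT1 is 22743 bp long on both builds. MALAT1 is 8708 bp long on hg19 and, counted from its first start, 8779 bp on GRCh38.p14. These MALAT1 lengths differ by far less than the 1307 bp between the starts. If both builds end MALAT1 at about the same base, the hg19 start thus lies close to the first start and not to the second.

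Other MALAT1 peaks were found in fewer libraries. In Dox replicate 1 the highest peak of the body was another, from 65267902 to 65268361, with a fold of 4.36 and a −log10 q of 1.97, and no other library had a peak there. In the MALAT1 body as a whole there were 3 and 2 peaks in Dox and 2 and 2 in PBS. The means of 2.5 ± 0.707 and 2.0 ± 0 (SD, n = 2 each) differed by less than the spread between the Dox replicates (two-sided exact permutation p = 1). Within replicate number 1 Dox had 1 more peak, and within number 2 the difference was 0.

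Downstream of MALAT1 a site from 65274163 to 65274799, starting 223 bp past the end of the gene, was called in 3 libraries. It had folds of 5.30 and 3.25 in Dox replicates 1 and 2 and 3.13 in PBS replicate 2, and PBS replicate 1 had no peak downstream. Its −log10 q was 2.65 in Dox replicate 1 and 0 in the other libraries with a peak. The next site, from 65275529 to 65276028, had 3.89-fold in Dox replicate 1 and 3.65-fold in PBS replicate 2, with summits 11 bp apart.

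Between the genes, over 51.2 kb, 8 and 4 peaks were called in Dox and 1 and 4 in PBS, none with a −log10 q of 1.3 or more. The highest fold there was 3.43, in Dox replicate 1. That is 0.156 and 0.0781 peaks per kb in Dox and 0.0195 and 0.0781 in PBS, against 0.644 and 0.230 in the NEAT1 body in Dox and 0.138 and 0.184 in PBS. In each library the NEAT1 body was thus more densely covered with calls than the stretch between the genes.

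**Figure D3:**
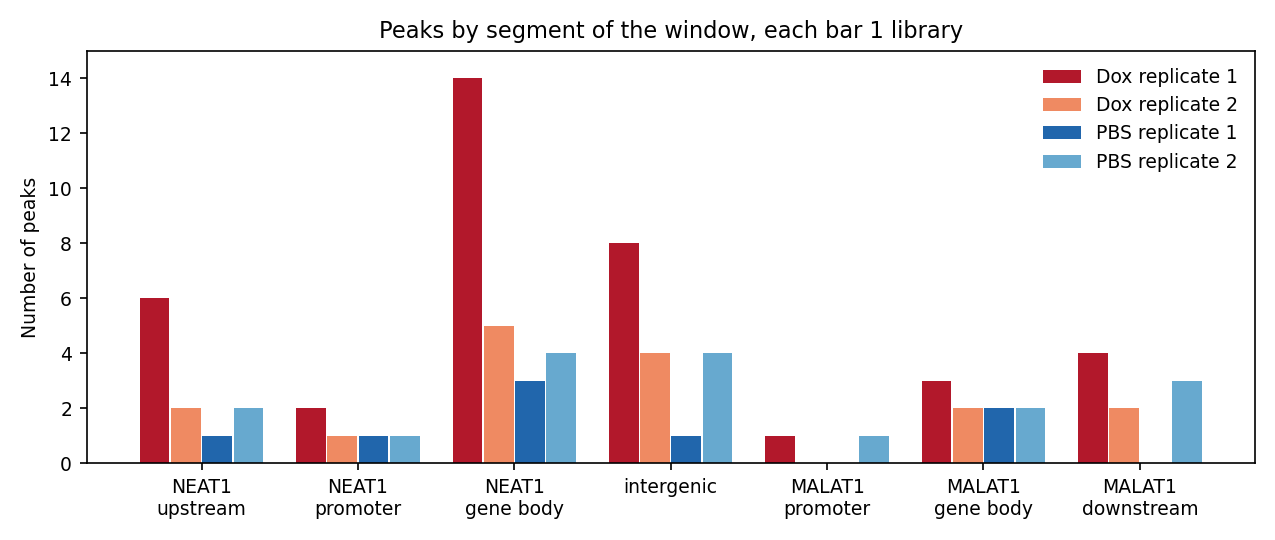
Number of peaks per library in each segment of the stretch, assigned by summit, with promoters taken as 1 kb on either side of a start. The NEAT1 body holds the most peaks in Dox replicates 1 (14) and 2 (5) and in PBS replicate 1 (3), and ties with the intergenic segment in PBS replicate 2 (4 each).

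As a whole the stretch was dense in peaks. Set among all stretches of the same length that hold a peak in the same list, 10 of 12814 held as many summits or more in Dox replicate 1, the stretch itself included. The same was true of 45 of 7436 in the other Dox library, and of 125 of 5791 and 55 of 9677 in PBS replicates 1 and 2. The stretch held 38, 15, 8 and 16 summits in this order, where the median over such stretches was 2, 1, 1 and 1.

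**Figure D4:**
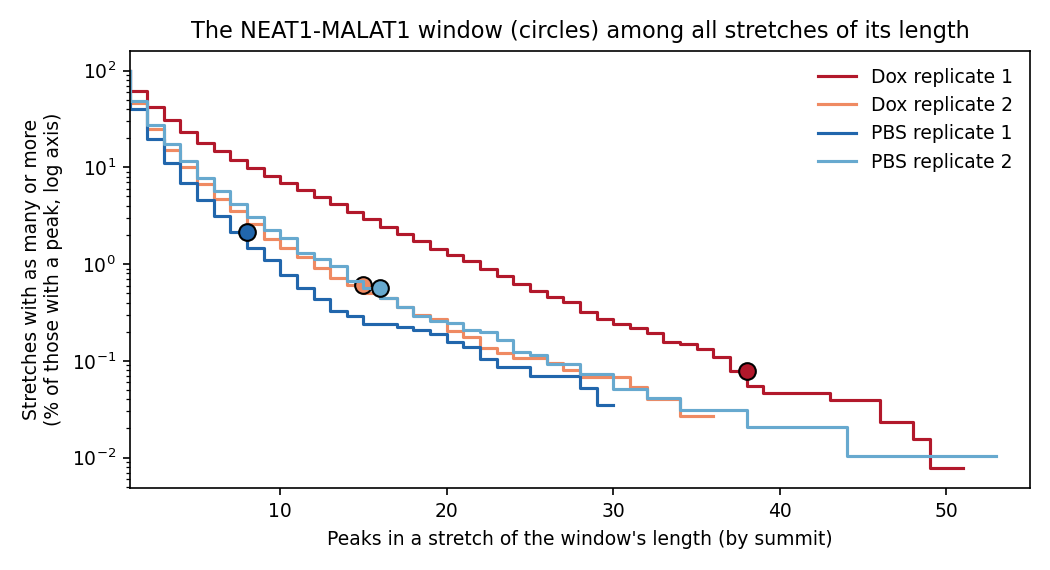
Share of genome stretches of the window's length, among those with a peak, that hold at least a given number of summits (log axis), 1 line per library. Circles mark the NEAT1 and MALAT1 stretch, with 38, 15, 8 and 16 summits, where 0.0780%, 0.605%, 2.16% and 0.568% of the stretches hold as many or more; the highest counts of the curves are 51, 36, 30 and 53.

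Peaks with a −log10 q of 1.3 or more numbered 4 in each Dox library, and 1 and 3 in PBS replicates 1 and 2. They made up 10.5% and 25.0% of the peaks of the stretch in Dox replicates 1 and 2, where the whole lists have 3.66% and 4.84%. In PBS replicates 1 and 2 the shares were 12.5% and 17.6%, beside 2.56% and 5.98% over the whole lists. The strong NEAT1 peak for which the stretch was chosen is among them in each library, and without it 3 of 37 and 3 of 15 peaks were left in Dox and 0 of 7 and 2 of 16 in PBS. In Dox replicate 1 these were the upstream and promoter sites of NEAT1, the lone MALAT1 body peak and the site past the end of MALAT1. In Dox replicate 2 they were the upstream and promoter sites, the first NEAT1 body site and the shared MALAT1 body site. PBS replicate 2 had the upstream and promoter sites of NEAT1 and the shared MALAT1 site, and PBS replicate 1 the promoter site alone. All other peaks were weak, and 31 of 38, 11 of 16, 7 of 8 and 10 of 17 were listed at a −log10 q of 0, in the order Dox replicates 1 and 2 and PBS replicates 1 and 2.

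The number of peaks in the stretch was not shown to differ between Dox and PBS. Dox libraries had 27.0 ± 15.6 peaks and PBS libraries 12.5 ± 6.36 (mean ± SD, n = 2 each), with a two-sided exact permutation p of 0.667 where no p under 0.333 could be reached. Within replicate number 1 Dox had 30 more peaks, and within number 2 the difference was -1. Leaving out Dox replicate 1 lowered the difference in means from 14.5 to 3.5 peaks. The length under peaks was 14059 and 6825 bp in Dox and 4091 and 7450 bp in PBS (two-sided exact permutation p = 0.667), which is 13.5%, 6.56%, 3.93% and 7.16% of the stretch.

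Scaled to the list, the libraries lay closer together. Per 10000 peaks of the list there were 8.14 (95% Wilson interval 5.93 to 11.2) and 9.61 (5.92 to 15.6) in Dox and 7.08 (3.59 to 14.0) and 7.40 (4.62 to 11.8) in PBS. These intervals reflect counting error alone, as if peaks were independent, and overlap in all 4 libraries. With the 11304 peaks of smallest p from each list, 11 and 14 peaks of the stretch were left in Dox and 8 and 10 in PBS. In Dox replicate 1 this number can be 9 to 14, since 5 peaks of the stretch share the p at which the list ends. On either scale, and for peaks with a −log10 q of 1.3 or more, both Dox values were above both PBS values, and the two-sided exact permutation p was 0.333, the smallest possible. At 9 peaks, the lowest count for Dox replicate 1, the equal lists would overlap.

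**Figure D5:**
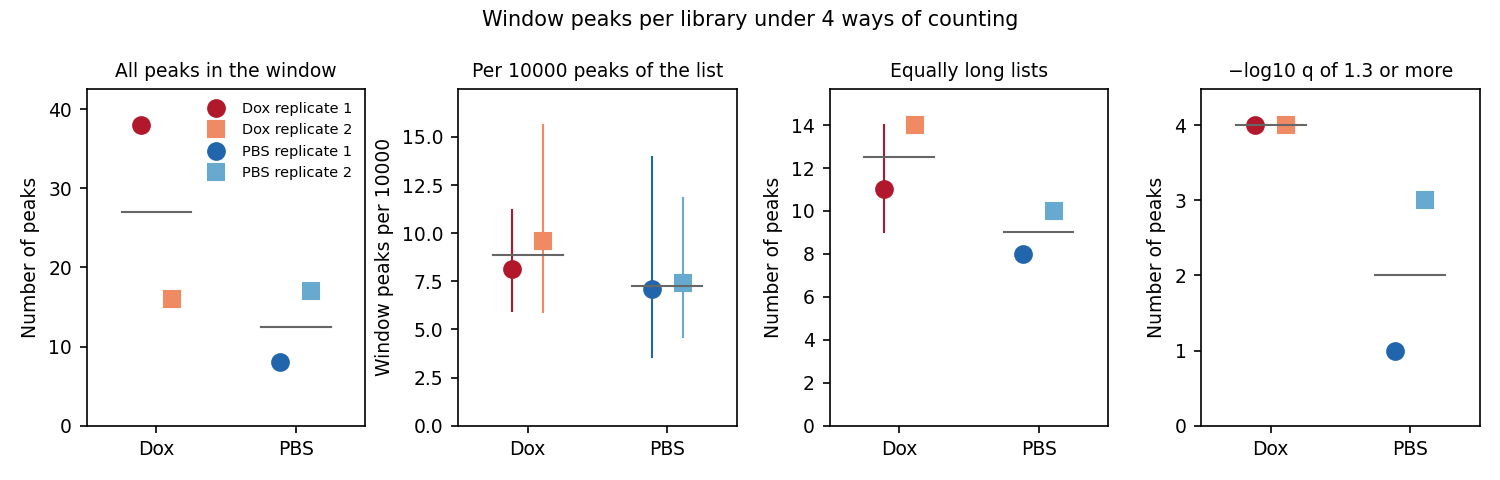
Peaks of the stretch per library, counted in 4 ways, with Dox and PBS on the x axis, replicate 1 as circles, replicate 2 as squares and the group mean as a grey line. Lines in the second panel are 95% Wilson intervals, and in the third the range that peaks of equal p allow. Dox replicate 1 (38 peaks) stands apart from the other libraries only in the first panel.

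Merged over the libraries, the peaks formed 46 sites, of which 29 were found in 1 library (63.0%, beside 72.5% of all sites of the genome), 22 of these in Dox replicate 1 (47.8% of the 46, beside 48.5%). A peak in all 4 libraries was found at 5 sites (10.9%, beside 6.01% of all sites of the genome): the upstream and promoter sites of NEAT1, its 2 body sites and the MALAT1 body site. The promoter site was known to be shared when the stretch was chosen, and without it the share is 4 of 45 (8.89%). At the MALAT1 body site the peaks of Dox replicate 1 and PBS replicate 2 do not overlap each other. A further 3 sites were called in each Dox library and in no PBS library (6.52%, beside 3.11% of all sites). These ran from 65183794 to 65184145 upstream of NEAT1, with 2.77-fold and 2.60-fold in Dox replicates 1 and 2, from 65196760 to 65197078 in the NEAT1 body, with 2.11-fold and 3.62-fold, and from 65244272 to 65245005 between the genes, with 2.77-fold and 2.63-fold. The summits at the NEAT1 body site lay 4 bp apart. Among lists of equal length none of the 3 kept a peak in both Dox libraries. The first and second kept that of Dox replicate 2, and the third kept neither. The Dox replicate 1 peaks of the first and the third have the very p at which its list ends, so by the order of ties the first could have been kept in both and the number of such sites be 0 or 1. The reverse pattern, both PBS libraries and neither Dox library, was found at 0 of 46 sites, beside 0.928% of all sites. A count of 0 allows a share of up to 6.52%, which takes 3 of 46 as the limit and treats the sites as independent. This limit is not a comparison with the sites of Dox only.

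In the tables of matched replicate peaks, the NEAT1 promoter led the pairs of the stretch in both conditions. The authors' table for each condition pairs the peaks of the replicates and gives an irreproducible discovery rate (IDR), low where both replicates rank a peak highly. Of 11 Dox pairs in the stretch 5 had an IDR of 0.05 or less (45.5%, beside 27.5% of all Dox pairs), and of 5 PBS pairs 1 had (20.0%, beside 15% of all PBS pairs). The NEAT1 promoter pair, by whose peaks the stretch was chosen, is in both counts, and without it 4 of 10 Dox pairs and 0 of 4 PBS pairs passed, so nothing is read from these shares. That pair had an IDR of 7.72e-07 in Dox, rank 9 of 8784, and of 6.94e-06 in PBS, rank 6 of 6244. For its Dox pair the table lists a −log10 p of 33.0 for the second peak, which is the mean of the 63.0 and 3.05 of the 2 peaks merged there. The other Dox pairs that passed were the NEAT1 upstream site (IDR 1.95e-05), the first NEAT1 body site (0.000284), the MALAT1 body site (0.000659) and the site past MALAT1 (0.0136). In PBS the upstream site had an IDR of 0.114, the first NEAT1 body site 0.368 and the MALAT1 body site 0.466. Each table rests on 1 pair of libraries, so the difference between conditions was not tested.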

How the data were processed

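p53 ChIP-seq peaks of 4 libraries of 293T cells were analysed. The submitters' processing notes name BWA, MACS2 and hg19; versions, filters and control use were not stated in the sources. Each library has 1 peak list deposited by the authors, called at p under 0.05 per the peak names in the files. The deposited lists hold a fold enrichment (ratio) at the summit and −log10 p and q values. The authors' deposited pair tables give −log10 p of both peaks and IDR, a fraction, per the file headers. Starts were changed to 1-based positions, and summits were used as listed. Sites are peaks of the 4 lists merged at 1 bp, so peaks of a site may be joined only through other peaks between them. Stretches of equal length came from a grid through the window.

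Conditions were compared by a two-sided exact permutation test over libraries, 2 against 2. The steps were tested on simulated data. Alternatives were a −log10 q minimum of 1.3, lists of equal length, other promoter widths, a stricter overlap and leaving out each library. Pathway genes were not placed, since the gene table used here is of GRCh38.p14. Peaks named in the text are the promoter peaks, the highest of each other segment per library, sites in all 4 libraries or in 1 condition only, and pairs with an IDR of 0.05 or less; the other named peaks were chosen after their values were seen. The members and lists were chosen with earlier results of these data known. Software was scipy 1.17.1, pandas 2.3.3, numpy 2.4.6 and matplotlib 3.10.9 in Python 3.11.15.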

Additional observations from a re-analysis of the deposited data

Results flagged for a closer look

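In the stretch, Dox exceeded PBS by 30 peaks at passage 3 (replicate number 1), whereas at passage 5 (replicate number 2) the difference was -1, so the sign was opposite. For the length under peaks the differences were 9968 bp and -625 bp. Each value rests on 1 library per condition, and whether the passages differ in this was not tested. The Dox replicate 1 list held 46658 peaks and the PBS replicate 1 list 11304. Per 10000 peaks of the list, the counts were 8.14 against 7.08 for number 1 and 9.61 against 7.4 for number 2.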

How the results depend on the processing

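The differences between Dox and PBS in the number of peaks, the length under peaks and the NEAT1 body peaks kept their sign under every alternative run, and every exact p was 0.333 or higher. Leaving out 1 library gave differences of 3.5 to 25.5 peaks for the stretch, 1054.5 to 8288.5 bp for the length under peaks, 1.5 to 10.5 peaks for the NEAT1 body and 0 to 1 for the MALAT1 body. The low ends are without Dox replicate 1. With equal list lengths the differences were 3.5 peaks, 1828.5 bp, 0.5 and 0 peaks in the same order. With the replicate block the mean difference in the stretch was again 14.5 peaks (exact sign-flip p = 1, smallest possible 0.5), 4671.5 bp, 6 NEAT1 body peaks and 0.5 MALAT1 body peaks; the numbers share a passage, but nothing in the labels says that they were handled together. Sites in all 4 libraries fell from 5 to 1 with a −log10 q of 1.3 or more, and sites of both Dox libraries only from 3 to 0 with that limit and with equal lists, both of which hold fewer peaks by construction. With equal lists that number is 0 or 1 by the order of tied peaks. Leaving out 1 library gave 5 to 7 sites in all libraries left, 4 to 25 sites of Dox only and 0 to 4 of PBS only, since the remaining list then stood for its condition. Peaks per 10000 of the list were chosen as a scale after the data had been seen. Read depth is not known, so no limit of detection can be given.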
